A study of Mus musculus with 8 samples.

Results

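The 9 miRNAs described here are the miR-25, miR-92, miR-363 and miR-32 seed family of the mouse with its partner arms, taken by name from a table of 1915 mature miRNAs. Of these, 5 carry the shared seed (mmu-miR-25-3p, mmu-miR-92a-3p, mmu-miR-92b-3p, mmu-miR-363-3p and mmu-miR-32-5p) and 4 come from the other arm of the same hairpins (mmu-miR-25-5p, mmu-miR-92a-1-5p, mmu-miR-363-5p and mmu-miR-32-3p). The prefix mmu stands for mouse and is left out below. All 9 passed the abundance filter and were among the 475 miRNAs tested. Small RNA was sequenced in 8 libraries of embryonic stem cells on a 129/Ola background, in 4 groups of 2. Wild type cells are the line E14 (libraries A and B). The Ago2 knockout group holds 2 separate lines, 1 and 2, with 1 library each. The other groups are 1 line, labelled as Ago2KO1 with inducible ectopic AGO1, kept in puromycin at 2 µg/mL and sequenced without doxycycline (uninduced A and B) and with doxycycline at 1 µg/mL (induced A and B). All cells outside the wild type group therefore carry the Ago2 knockout, and the AGO1 line by its label goes back to knockout line 1. All cells grew in 15% serum with LIF at 100 U/mL. No label tells if A and B were grown as separate cultures, so p-values measure the spread between these libraries, which may be technical. The tests below pool this spread over all 4 groups. Their p-values for the knockout thus also draw on pairs of libraries from 1 line, and do not measure the spread between knockout lines alone.

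A miRNA hairpin is cut by Drosha and Dicer into a duplex of a 5p and a 3p strand. One strand is kept by an Argonaute protein as the guide and the other is usually lost, and bases 2 to 8 of the guide, the seed, select its targets. AGO2 is the Argonaute known for strong slicing of targets, and AGO1 also binds miRNAs. The family lies in 3 related polycistrons and in single hairpins: miR-92a ends the miR-17-92 cluster, an oncogenic cluster that promotes proliferation, miR-25 belongs to the miR-106b-25 cluster, and miR-363 and a second copy of miR-92a belong to the miR-106a-363 cluster. Known targets of the seed include the cell cycle inhibitor Cdkn1c and the apoptosis gene Bcl2l11.

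The mature sequences are shown first because the seed defines the family and the bases after it decide how well its reads can be told apart. They come from RefSeq on GRCm38.p6, which had 8 of the 9 members, and run 5′ to 3′ with bases 2 to 8 in capitals.
miR-25-3p: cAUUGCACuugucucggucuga
miR-92a-3p: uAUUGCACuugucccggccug
miR-92b-3p: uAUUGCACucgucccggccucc
miR-363-3p: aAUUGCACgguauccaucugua
miR-32-5p: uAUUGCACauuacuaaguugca
miR-25-5p: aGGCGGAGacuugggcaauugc
miR-92a-1-5p: aGGUUGGGauuugucgcaaugcu
miR-32-3p: cAAUUUAGugugugugauauu
The first 5 share the seed AUUGCAC, and the partner arms have 3 other seeds. Of 1621 mature miRNAs of the table with a RefSeq sequence, 6 have AUUGCAC at bases 2 to 8, namely these 5 and miR-367-3p. Counted from the 5′ end without gaps, miR-92a-3p and miR-92b-3p differ at 2 of 21 bases (U10C and G21C, from miR-92a-3p to miR-92b-3p). miR-25-3p and miR-92a-3p differ at 3 of 21 bases (C1U, U14C and U18C). miR-363-3p and miR-32-5p differ from every other member with the seed at 9 or more bases. How many mismatches the alignment allowed was not given in the sources used here, so a part of the reads of miR-92a-3p, miR-92b-3p and miR-25-3p may have been exchanged among them.

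On mouse build GRCm38 (mm10, the build named in the submitters' processing notes) with GENCODE vM21, Mir25 lies on chromosome 5 (138165321 to 138165404, minus strand) and overlaps an exon of a Mcm7 transcript outside its coding sequence. Mir92-1 lies on chromosome 14 (115044427 to 115044506, plus strand) in an exon of the non-coding host gene Mir17hg. Its mature product miR-92a-3p is also made by Mir92-2 on chromosome X (52741838 to 52741928, minus strand), so these 2 sources cannot be told apart in the counts. Mir363 lies beside it on chromosome X (52741693 to 52741767, minus strand), and neither is overlapped by another annotated gene. Mir32 lies on chromosome 4 (56895229 to 56895298, minus strand) in an intron of Tmem245. Mir92b lies on chromosome 3 (89227116 to 89227198, minus strand) with no overlapping annotated gene. Hairpins of Mir25 and Mir92-1 are printed to show how the arms lie, with both mature arms in capitals, the 5p arm first.
Mir25: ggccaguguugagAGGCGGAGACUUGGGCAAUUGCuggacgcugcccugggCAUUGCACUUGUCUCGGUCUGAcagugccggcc
Mir92-1: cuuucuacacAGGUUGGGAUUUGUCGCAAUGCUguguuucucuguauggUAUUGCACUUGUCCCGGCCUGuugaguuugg

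Library totals ranged from 163467 counts (knockout 2) to 1326638 (induced A), so 1 count was worth 0.855 to 5.03 CPM. CPM is counts per 1000000 of a library's total, with totals adjusted by edgeR's TMM factors (0.881 to 1.22). It is a relative level, which cannot show a common rise or fall of every miRNA. Intervals on shares express counting error alone and hold no spread between libraries. PCR copies are not marked by molecular identifiers, so even the counting error may be larger than these intervals. The Spearman correlation between the 2 libraries of a group over the 475 tested miRNAs was 0.902 in the knockout and 0.973 to 0.985 in the other groups. Of 14 listed miRNAs of pluripotent cells all had counts, and they took 22.6 to 28.5% of each library. Blood markers had 3 of 5 with counts (miR-223-3p and miR-451a were at 0), at 0.163 to 0.187% in wild type, 0.638 to 0.777% in the knockout, 0.633 to 0.693% in the uninduced and 0.327 to 0.348% in the induced line. Fibroblast and smooth muscle markers (4 of 4 with counts) took 0.378 to 0.496, 0.186 to 0.193, 0.163 to 0.168 and 0.237 to 0.254% in the same order of groups, and neural markers (4 of 4) 0.150 to 0.166, 0.100 to 0.105, 0.0763 to 0.115 and 0.0829 to 0.0983%. Muscle markers (1 of 3 with counts, miR-1a-3p and miR-206-3p at 0) took at most 0.000683%, and the liver marker miR-122-5p was at 0. The part of other cell types in the results below was not tested. The targeted gene was not measured in small RNA, so the genotypes rest on the labels.

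In the Ago2 knockout lines, miR-92b-3p rose, miR-363-3p and miR-32-5p fell, and the partner arms miR-25-5p and miR-92a-1-5p rose. The abundant miR-25-3p and miR-92a-3p did not pass the test. In such bulk samples, fewer cells with a miRNA and less of it per cell cannot be told apart. Knockout against wild type was fitted with edgeR's quasi-likelihood test (2-sided) in 1 fit of all 8 libraries, with Benjamini-Hochberg adjustment over the 475 miRNAs, and a call is an adjusted p under 0.05. Of the 9 members 5 were called, 3 higher and 2 lower. Over all miRNAs tested 57.7% were called, 25.5% higher and 32.2% lower, so the members' share is near the background. The median log2 fold change was 0.21 over the 9 members and -0.12 over all 475. Fold changes ± SE are on the log2 scale, with an approximate SE, the size of the fold change over the root of its F value.

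Among the members with the seed, miR-25-3p, the most abundant in wild type, stood at 18430.3 and 17149 CPM in wild type A and B and at 19075 and 14468 CPM in knockout 1 and 2. The wild type values lie between those of the knockout lines (log2 fold change -0.08 ± 0.18, edgeR adjusted p = 0.694). miR-92a-3p, the last miRNA of the miR-17-92 cluster and known for roles in blood vessels and B cells, stood at 11015 and 8949.99 CPM in wild type and 10732 and 12299.6 CPM in the knockout. Its groups overlap (0.21 ± 0.17, edgeR adjusted p = 0.301), though without TMM factors it was called as higher (0.53, edgeR adjusted p = 0.0155). miR-92b-3p, a miRNA known from neural progenitors and stem cells, had 9502.9 and 7643 CPM in wild type and 22343 and 22723 CPM in the knockout. Both knockout libraries lie above both wild type libraries, and the lines hardly differ from each other (1.39 ± 0.16, a 2.63-fold rise, edgeR adjusted p = 7.3e-05).

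miR-363-3p, from the X-linked miR-106a-363 cluster, fell furthest of the members. Its level was 3939 and 3015 CPM in wild type, with 3320 and 3352 counts, and 554 and 262 CPM in knockout 1 and 2, with 222 and 52 counts. Both knockout libraries lie far below wild type, and line 2 was lower than line 1 (-3.07 ± 0.33, an 8.38-fold drop, edgeR adjusted p = 4.61e-05). The drop was -3.73 without knockout 1, -2.62 without knockout 2 and -2.46 without the 2 shallowest libraries. miR-32-5p, the least abundant member with the seed and known as an androgen-regulated miRNA in prostate, was counted 81 and 131 times in wild type A and B (96.1 and 118 CPM). In knockout 1 and 2 it was counted 19 and 7 times (47.4 and 35.2 CPM). Its groups do not overlap, and the fold change was -1.33 ± 0.37 (edgeR adjusted p = 0.0122). It no longer passed without wild type B (edgeR adjusted p = 0.0588), without both shallowest libraries (0.0639), with only the 2 groups in the fit (0.0627) and by the DESeq2 Wald test (adjusted p = 0.0564).

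The partner arms of miR-25 and miR-92a-1 rose. miR-25-5p had 125 and 58.5 CPM in wild type and 679 and 1082 CPM in the knockout, on 105, 65, 272 and 215 counts. All knockout values lie above wild type, a 9.63-fold rise (3.27 ± 0.37, edgeR adjusted p = 7.77e-05). The size of the rise moved with the wild type library used, from 4.09 without wild type A to 2.80 without wild type B. miR-92a-1-5p had 4439 and 2456 CPM in wild type and 15165 and 21863 CPM in the knockout. This arm thus passed the level of its partner miR-92a-3p in both knockout lines (2.43 ± 0.28, a 5.37-fold rise, edgeR adjusted p = 7.72e-05), and its rise was 3.10 without wild type A.

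The arms miR-363-5p and miR-32-3p were not called. miR-363-5p had 286 and 199.7 CPM in wild type and 207 and 106 CPM in the knockout (-0.59 ± 0.35, edgeR adjusted p = 0.170). Knockout 1 lies between the wild type libraries, and without it miR-363-5p was called as lower (-1.19, edgeR adjusted p = 0.0100). miR-32-3p was counted 46 and 42 times in wild type A and B (54.6 and 37.8 CPM) and 24 and 21 times in knockout 1 and 2 (59.9 and 106 CPM), with a fold change of 0.78 ± 0.41 (edgeR adjusted p = 0.124). The groups do not overlap, and the member was called as higher without knockout 1 (1.21, edgeR adjusted p = 0.0284) and without TMM factors (1.10, edgeR adjusted p = 0.0457).

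**Figure D1:**
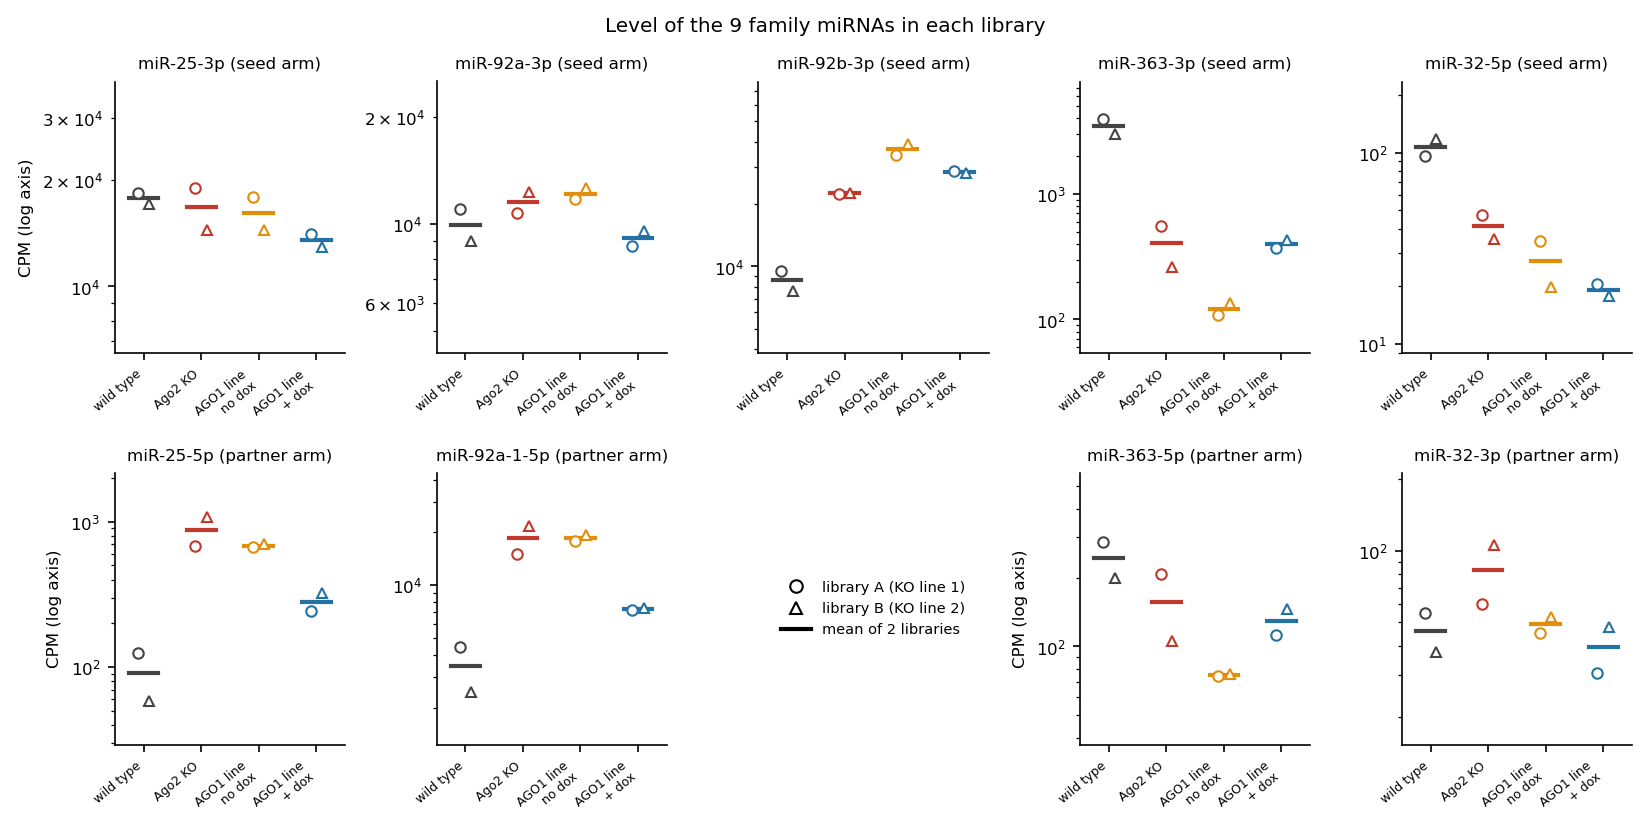
Level of each family member in CPM (log axis) in the 4 groups; circles are library A or knockout line 1, triangles library B or line 2, and bars the mean of 2 libraries. The top row holds the 5 miRNAs with the shared seed and the bottom row the partner arms; miR-363-3p is highest in wild type (3015 and 3939 CPM) and lowest in the uninduced AGO1 line (108 and 136 CPM).

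Because 2 partner arms rose while their seed arms were not called, the 2 arms of each hairpin were compared within each library, which needs no scaling between libraries. In all 4 hairpins with both arms among the members, the partner arm took a larger share in each knockout library than in each wild type library. The less abundant arm did so in 28.9% of the 246 hairpins tested below. The miR-92b hairpin, whose 5p arm is no member, is not among these 4. Its miR-92b-5p had 7 and 1 counts in wild type A and B, against 8009 and 8497 of miR-92b-3p. Knockout 1 and 2 had 11 and 3 counts, against 8956 and 4517. On these few counts its share was higher in wild type A than in knockout 2. Wild type A and B had 0.671 and 0.340% of miR-25 as the partner arm miR-25-5p, and knockout 1 and 2 had 3.44 and 6.96%. For miR-92a-1, paired with the shared miR-92a-3p, the 5p arm took 28.7 and 21.5% in wild type against 58.6 and 64.0% in the knockout. The arm with more counts thus changed, but miR-92a-3p pools Mir92-1 and Mir92-2. The share within the Mir92-1 hairpin itself is therefore not known in any group. A change in reads from Mir92-2 would also move this value and the ratio tests of miR-92a-1. The arm miR-363-5p went from 6.77 and 6.21% to 27.2 and 28.8%. For miR-32, whose seed arm is the 5p arm, the share of miR-32-3p was 36.2 and 24.3% in wild type A and B against 55.8 and 75% in knockout 1 and 2. The last value rests on 28 counts, with a 95% exact (Clopper-Pearson) binomial interval from 55.1 to 89.3%.

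The ratio of partner to seed arm was tested by edgeR as an interaction of arm and group, with a term for each library, over 246 hairpins that had at least 40 counts in both arms together. All 4 hairpins with both arms among the members were called with the partner arm up. On the log2 scale the rise was 3.39 ± 0.31 for miR-25 (edgeR adjusted p = 3.2e-24), 2.25 ± 0.29 for miR-92a-1 (3.88e-13), 2.47 ± 0.33 for miR-363 (5.09e-12) and 2.06 ± 0.55 for miR-32 (0.00131). Over the 246 hairpins 24% were called, 18.3% with the arm of lower total count up and 5.69% with it down. The median log2 change of the less abundant arm over the other was 0.34. The test took 1 spread trend for all hairpins, with no allowance for a hairpin that varies more than others of its abundance, so such small p-values do not measure precision. For miR-32 the call did not hold once wild type B was left out (1.63, edgeR adjusted p = 0.0847), nor once knockout 2 was (1.58, edgeR adjusted p = 0.0619), and without knockout 1 the change was 2.82. DESeq2 called the same 4 hairpins.

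**Figure D2:**
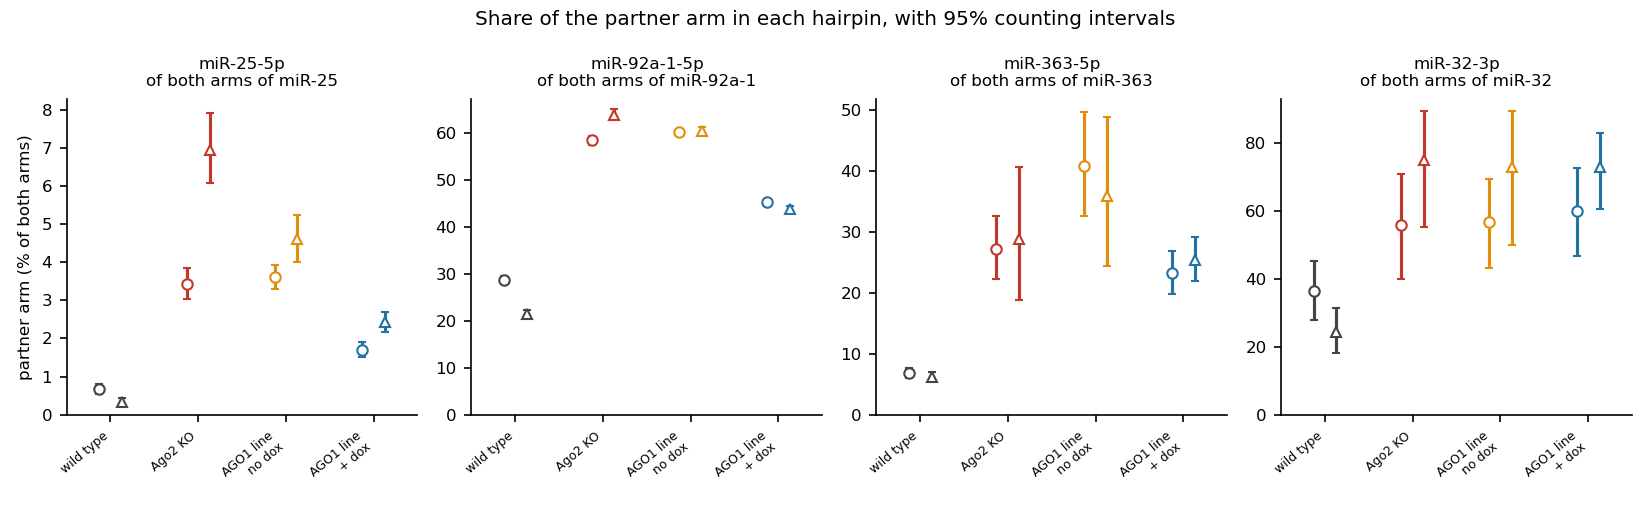
Partner arm as a percentage of the counts of both arms (linear axis from 0, a separate scale per panel) for 4 hairpins; circles are library A or knockout line 1, triangles library B or line 2, and bars are 95% exact binomial intervals of each library. In miR-92a-1 the wild type libraries lie at 28.7 and 21.5%, while the knockout and uninduced libraries lie above 50% (58.6 to 64.0%).

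The 5 miRNAs with the seed together took 3.74 ± 0.0993% of all counts in wild type and 5.97 ± 0.117% in the knockout (SD, n = 2). The AGO1 line had 6.70 ± 0.189% uninduced and 4.58 ± 0.0159% induced. The range within each group is small beside the differences between groups. Since an exact permutation test of 2 against 2 libraries cannot give a p under 0.333, these shares are a description. Without miR-92b-3p the other 4 held 2.94 ± 0.0415%, 3.34 ± 0.0729%, 2.93 ± 0.164% and 2.05 ± 0.0133% in the same order, with the induced line lowest.

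Which member supplied the seed also differed. In wild type miR-25-3p gave 44.7 ± 2.57% of the family's seed counts, miR-92a-3p 24.9 ± 0.957%, miR-92b-3p 21.4 ± 0.977%, miR-363-3p 8.67 ± 0.699% and miR-32-5p 0.272 ± 0.0679% (SD, n = 2). miR-25-3p supplied 32.6 ± 5.02% in the knockout, 24.9 ± 4.25% in the uninduced and 26.2 ± 1.34% in the induced line. In the knockout miR-92b-3p led with 44.0 ± 2.32%, and in the AGO1 line it held 56.3 ± 3.68% uninduced and 55.2 ± 0.134% induced. miR-363-3p held 0.788 ± 0.371% in the knockout, 0.186 ± 0.0265% in the uninduced and 0.776 ± 0.0849% in the induced line. The ratio of miR-92b-3p to miR-92a-3p counts, a description of 2 near-identical sequences, was 0.863 and 0.854 in wild type A and B. It was 2.08 and 1.85 in knockout 1 and 2, 2.94 and 3.09 in uninduced A and B, and 3.31 and 2.95 in induced A and B. Wild type is thus the one group in which miR-92a-3p had more counts than miR-92b-3p in both libraries.

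**Figure D3:**
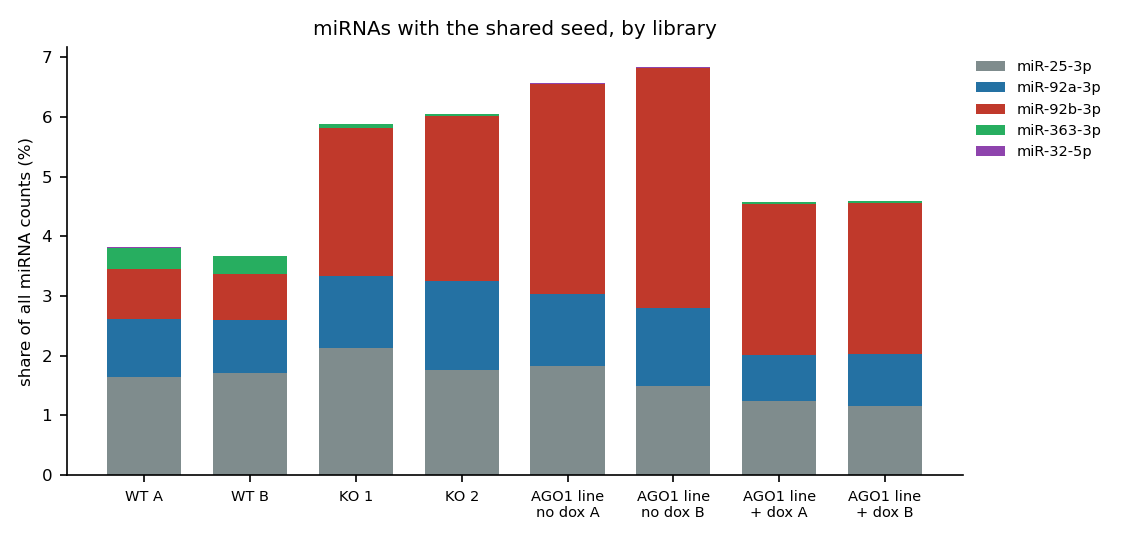
Share of all miRNA counts (percent, from 0) taken by the 5 miRNAs with the seed AUUGCAC in each of the 8 libraries, stacked by member. The stacks reach 3.67 and 3.81% in wild type and 6.56 and 6.83% in the uninduced AGO1 line, and the miR-92b-3p layer differs most between groups in percentage points.

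The 8 members with a RefSeq sequence are 21 to 23 bases long, and levels were not scaled by length. In order of level, wild type had miR-25-3p first, then miR-92a-3p and miR-92b-3p, whose values overlap (7643 to 11015 CPM over both). miR-363-3p and miR-92a-1-5p followed and overlap each other as well (2456 to 4439 CPM). Next came miR-363-5p, then miR-32-5p and miR-25-5p, which overlap, and miR-32-3p last. Among all 1915 miRNAs the mean level of miR-92b-3p ranked 24th in wild type, 9th in the knockout, 6th in the uninduced and 10th in the induced line. The rank of miR-363-3p went from 35 in wild type to 106 in the knockout, 199 in the uninduced and 116 in the induced line. miR-92a-1-5p ranked 38th in wild type and 12th in the knockout. These ranks describe relative levels, and neighbours in them were not tested.

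The uninduced AGO1 line was set against wild type as another group without AGO2. It is no independent repeat, since it shares the wild type libraries with the knockout comparison and by its label was made from knockout line 1. The line also carries inducible AGO1 and was kept in puromycin, which the labels give for neither wild type nor knockout. The parts of these and of the Ago2 knockout cannot be told apart here. Of the 9 members 6 were called, 3 higher and 3 lower, where 59.2% of the 475 were called (25.9% higher, 33.3% lower). The median log2 fold change was 0.08 over the members and -0.14 over all. miR-363-3p stood at 108 and 136 CPM in the uninduced line, on 81 and 41 counts, a 28.9-fold drop from wild type (-4.85 ± 0.36, edgeR adjusted p = 3.24e-06). Its partner miR-363-5p was also called here, at 74.5 and 76.1 CPM (-1.69 ± 0.36, edgeR adjusted p = 0.00277). miR-32-5p fell to 34.6 and 19.8 CPM (-1.87 ± 0.36, edgeR adjusted p = 0.00138), on 26 and 6 counts, and the change was -2.51 without uninduced A.

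In the upward direction, miR-92b-3p reached 34549 and 38946 CPM, its highest level in the series (2.10 ± 0.16, edgeR adjusted p = 4.05e-06). miR-92a-1-5p stood at 17779 and 19238 CPM (2.42 ± 0.28, edgeR adjusted p = 6.1e-05) and miR-25-5p at 671 and 698 CPM (2.91 ± 0.37, edgeR adjusted p = 0.00011). Without wild type A these rises were 3.05 for miR-92a-1-5p and 3.68 for miR-25-5p. The other 3 were not called, miR-25-3p at -0.14 ± 0.18 (edgeR adjusted p = 0.533), miR-92a-3p at 0.29 ± 0.17 (0.159) and miR-32-3p at 0.08 ± 0.40 (0.881). miR-92a-3p was called as higher without wild type A (0.59, edgeR adjusted p = 0.0450), without TMM factors (0.42, 0.0351) and without the 2 shallowest libraries (0.40, 0.0467). The ratio of partner to seed arm was up in all 4 hairpins, by 3.11 ± 0.31 (miR-25), 2.19 ± 0.28 (miR-92a-1), 3.20 ± 0.35 (miR-363) and 1.93 ± 0.53 (miR-32). In miR-363 both arms were called as lower, and in miR-32 the seed arm was lower while miR-32-3p was not called. Of the 246 hairpins 23.6% were called, 17.1% with the less abundant arm up relative to the other and 6.5% with it down. The miR-32 call did not hold when wild type B was left out (edgeR adjusted p = 0.101), and without uninduced A the change was 2.65.

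Between the uninduced AGO1 line and the knockout lines, 0 of 9 members were called by edgeR, as were 0 of all 475 (percent called 0), although 72 of the 475 had an unadjusted p under 0.05. The median was -0.36 over the members and -0.01 over all. Line, inducible AGO1 and puromycin differ together between these groups, so their parts cannot be told apart. DESeq2 called 8 miRNAs, among them miR-363-3p and miR-92b-3p. The smallest unadjusted p-values among the members were those of miR-363-3p (-1.78 ± 0.33, edgeR adjusted p = 0.134), miR-363-5p (-1.10 ± 0.38, 0.233) and miR-92b-3p (0.71 ± 0.16, 0.134), each with groups that do not overlap. This held for 5 of 9 members and for 44.6% of the 475. With either knockout line left out, miR-363-3p and miR-92b-3p were called, while miR-363-5p was called without knockout 2 and not without knockout 1 (edgeR adjusted p = 0.527). Without knockout 2, which leaves the line the AGO1 line is labelled after, 3 members were called: miR-363-3p (-2.24, edgeR adjusted p = 4.26e-15), miR-363-5p (-1.48, 0.000645) and miR-92b-3p (0.70, 0.0257). Without knockout 1, 2 were called, miR-363-3p (-1.13, 0.00495) and miR-92b-3p (0.70, 0.0201). Leaving out either uninduced library gave 0 calls. In these fits a lone library is assumed to vary like the other groups. No arm ratio of the 4 hairpins was called by edgeR (0.813% of 246 called, 14 at an unadjusted p under 0.05) or by DESeq2.

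Doxycycline, which induces AGO1 in the same line, was compared with no doxycycline to ask what added AGO1 does to miRNA levels in cells without AGO2. miR-363-3p rose, and the partner arms miR-25-5p and miR-92a-1-5p fell. Of 9 members 3 were called, 1 higher and 2 lower, where 28.8% of the 475 were called (21.1% higher, 7.79% lower). The median log2 fold change was -0.37 over the members and 0.03 over all. Doxycycline without the transgene was not analysed here, so the drug and AGO1 cannot be told apart.

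miR-363-3p rose from 108 and 136 CPM to 371 and 428 CPM (1.73 ± 0.33, a 3.32-fold rise, edgeR adjusted p = 0.00353), on 434 and 429 counts in the induced libraries. The groups do not overlap, and the induced level stayed far under wild type. miR-92a-1-5p fell from 17779 and 19238 CPM to 7196 and 7448 CPM (-1.34 ± 0.27, a 2.53-fold drop, edgeR adjusted p = 0.00474). miR-25-5p fell from 671 and 698 CPM to 244 and 321 CPM (-1.28 ± 0.34, edgeR adjusted p = 0.0203). This last call was lost without induced A (-1.04, edgeR adjusted p = 0.154), induced B (-1.48, 0.0701) or uninduced A (-1.18, 0.0780).

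The abundant seed members had small differences. miR-92b-3p stood at 28694 and 28201 CPM with doxycycline (-0.37 ± 0.15, edgeR adjusted p = 0.102), miR-92a-3p at 8680 and 9571 CPM (-0.42 ± 0.17, 0.0916) and miR-25-3p at 14108 and 12939.9 CPM (-0.26 ± 0.18, 0.303). Their groups do not overlap, which held for 7 of 9 members and for 72.4% of the 475. The first 2 were called as lower with DESeq2 size factors (-0.44, edgeR adjusted p = 0.0312, and -0.49, 0.0396) and without TMM factors (-0.58, 0.00892, and -0.62, 0.0142), where miR-25-3p was called as well (-0.47, 0.0415). miR-363-5p stood at 112 and 145 CPM (0.77 ± 0.36, edgeR adjusted p = 0.140), called with only these 2 groups in the fit (0.75, 0.0181). miR-32-5p, at 20.5 and 17.9 CPM (-0.59 ± 0.40, 0.291), and miR-32-3p, at 30.8 and 47.8 CPM (-0.30 ± 0.40, 0.611), overlap between the groups.

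With doxycycline the partner arm took a smaller share of miR-25, miR-92a-1 and miR-363 in both induced libraries, and the less abundant arm did so in 24.8% of the 246 hairpins. For miR-25-5p the share went from 3.61 and 4.60% to 1.70 and 2.42%, for miR-92a-1-5p from 60.2 and 60.4% to 45.3 and 43.8%, and for miR-363-5p from 40.9 and 35.9% to 23.2 and 25.4%. In miR-32 it was 56.7 and 72.7% without and 60 and 72.7% with doxycycline. In the miR-92b hairpin, outside these 4, miR-92b-5p had 11 and 2 counts in uninduced A and B and 16 and 17 in induced A and B. The counts of miR-92b-3p were 25954 and 11778, then 33547 and 28299. Both induced shares of that 5p arm were thus higher, on few counts. By edgeR 2 of the 4 were called as lower, miR-25 (-1.03 ± 0.29, adjusted p = 0.00947) and miR-92a-1 (-0.92 ± 0.28, 0.0248), where 4.88% of 246 hairpins were called, 4.47% with the less abundant arm down. miR-363 missed the threshold (-0.99 ± 0.35, edgeR adjusted p = 0.0683, but 0.0430 over hairpins with 10 counts in each arm), and miR-32 was at 0.30 ± 0.58 (0.873). For miR-25 the call was lost by DESeq2 (adjusted p = 0.647), without induced A (edgeR adjusted p = 0.391), without uninduced B (0.155) and over hairpins with 10 counts in each arm (0.0709). For miR-92a-1 it was lost by DESeq2 (0.0933) and on leaving out uninduced A (edgeR adjusted p = 0.0610), uninduced B (0.0598), induced A (0.193) or induced B (0.220).

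The induced AGO1 line was then compared with wild type, again with shared libraries. Here the Ago2 knockout, AGO1, puromycin and doxycycline differ together and cannot be told apart. Of 9 members 5 were called, 3 higher and 2 lower, where 38.9% of the 475 were called (19.2% higher, 19.8% lower), with a median of -0.23 over the members and 0.01 over all. miR-92b-3p stayed higher (1.73 ± 0.16, edgeR adjusted p = 8.52e-05), as did miR-25-5p (1.63 ± 0.36, 0.0054) and miR-92a-1-5p (1.09 ± 0.27, 0.0105). For the last of these, leaving out wild type B ended the call (0.72, edgeR adjusted p = 0.0657). Without wild type A the differences were 2.44 for miR-25-5p and 1.75 for miR-92a-1-5p. miR-363-3p (-3.12 ± 0.32, edgeR adjusted p = 0.000114) and miR-32-5p (-2.46 ± 0.34, 0.000643) were lower, the latter on 24 and 18 counts.

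The remaining 4 members were not called in that comparison. miR-363-5p was at -0.91 ± 0.34 (edgeR adjusted p = 0.0538), under the threshold by the DESeq2 Wald test (0.0430). It also passed by edgeR with DESeq2 size factors (adjusted p = 0.0452), without TMM factors (0.0335), without the filter (0.0264) and with only the 2 groups in the fit (0.00587). With a mean of at least 20 CPM as the filter it did not (0.0699). The others were miR-25-3p at -0.40 ± 0.18 (edgeR adjusted p = 0.107, and 0.0309 without TMM factors), miR-92a-3p at -0.13 ± 0.17 (0.569) and miR-32-3p at -0.23 ± 0.38 (0.665). The ratio of partner to seed arm was up in all 4 hairpins, though miR-363-5p and miR-32-3p themselves were not higher. It rose by 2.08 ± 0.30 for miR-25, 1.27 ± 0.28 for miR-92a-1, 2.21 ± 0.28 for miR-363 and 2.23 ± 0.48 for miR-32 (edgeR adjusted p from 1.06e-12 to 6.53e-05). Of 246 hairpins 27.6% were called, 15.9% with the less abundant arm up relative to the other and 11.8% with it down.

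**Figure D4:**
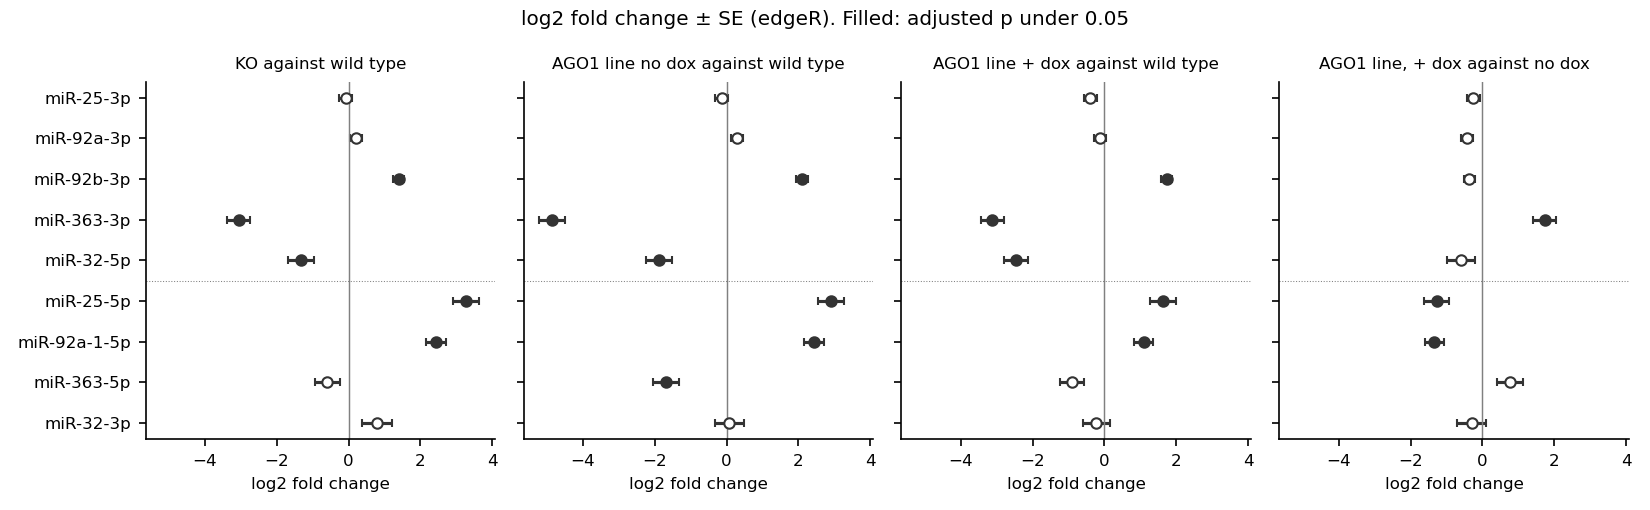
log2 fold change ± SE by edgeR (horizontal axis) for the 9 members in 4 comparisons, with the members carrying the seed above the dotted line and partner arms below; filled points have an adjusted p under 0.05. miR-363-3p is lower in all 3 comparisons with wild type (-3.07, -4.85 and -3.12) and higher with doxycycline (1.73).

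The other miRNAs of the family's 3 clusters are processed from the same primary transcripts, so their values are given beside it. The shares called over all 475 miRNAs were 57.7% for the knockout and 28.8% for doxycycline, and calls in the short lists are read against them. Names in these lists that go past 2 per list were chosen after their values were seen. In the Mcm7 cluster, miR-106b-5p, miR-106b-3p and miR-93-5p fell in the knockout and miR-93-3p rose (4 of 4 tested; median log2 fold change -1.11), while miR-25-3p of the same transcript was not called. miR-93-5p went from 5678 ± 466 to 2835 ± 139 CPM (SD, n = 2; edgeR adjusted p = 0.00133) and miR-106b-3p from 475 ± 88.1 to 150 ± 29.2 CPM (-1.68, edgeR adjusted p = 0.000745).

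In the miR-17-92a-1 cluster 9 of 10 listed neighbours were tested. Of these miR-17-3p, miR-19a-5p and miR-19b-1-5p rose and miR-17-5p and miR-18a-5p fell (median 0.32), 5 of 9 and so near the share over all miRNAs. miR-18a-5p went from 685 ± 68.2 to 185 ± 1.07 CPM (-1.89, edgeR adjusted p = 9.83e-05), and miR-19b-1-5p, like miR-92a-1-5p a partner arm, from 4.46 ± 3.76 to 74.0 ± 30.5 CPM (edgeR adjusted p = 0.000361). That wild type level rests on few counts, as 1 count is worth 1.19 and 0.899 CPM in wild type A and B. In the miR-106a-363 cluster 7 of 8 were tested, and miR-106a-5p, miR-18b-5p, miR-18b-3p and miR-20b-5p fell while miR-20b-3p rose (median -1.06). miR-92a-2-5p, passed the test as higher (edgeR adjusted p = 0.0042) on only 3 and 1 wild type counts against 7 and 9 knockout counts, and it enters the median as a value above it. miR-18b-5p went from 686 ± 143 to 115 ± 57.3 CPM (-2.63, edgeR adjusted p = 0.00018), the fall nearest to that of miR-363-3p. With doxycycline, 0 of 4, 3 of 9 and 1 of 7 neighbours were called in the Mcm7, miR-17-92a-1 and miR-106a-363 lists, where 28.8% of all miRNAs were. These were miR-18a-5p (1.25, edgeR adjusted p = 0.00275) and miR-18b-3p (1.28, 0.0247) as higher, and miR-19a-5p (-2.06, 0.00399) and miR-19b-1-5p (-1.77, 0.0141) as lower. Members of these clusters have near-identical copies, such as miR-106a-5p, miR-17-5p and miR-20b-5p, whose reads can be shared.

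Likeness of profiles over the 8 libraries was measured as the root mean square difference in log2(CPM + 1), each profile centred on its own mean, against 466 other tested miRNAs. The nearest to miR-92a-3p were miR-20a-5p of its own cluster (0.158) and miR-339-3p (0.192, against a median of 0.754 over all). Nearest to miR-25-5p were the arms miR-19b-1-5p (0.346) and miR-195a-3p (0.403, median 1.52), and nearest to miR-92a-1-5p were miR-182-3p (0.304) and miR-96-3p (0.320, median 1.25). miR-25-3p was most like miR-708-5p (0.125) and miR-292a-5p (0.132, median 0.781), and miR-92b-3p most like miR-30e-3p (0.226) and miR-335-5p (0.247, median 1.06). miR-363-3p had no close match, with miR-23b-3p (0.672) and miR-433-5p (0.698) nearest and a median of 1.80. Its partner miR-363-5p was most like miR-429-3p (0.228) and miR-290a-5p (0.259, median 0.981). For miR-32-5p the nearest were miR-30a-5p (0.271) and miR-106a-5p (0.342, median 1.22), and for miR-32-3p miR-1943-5p (0.290) and miR-378c (0.300, median 0.836). Within the family, miR-25-5p and miR-92a-1-5p were near each other (0.324), and so were miR-25-3p and miR-92a-3p (0.255).

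Beyond the members, the partner arms miR-92a-2-5p and miR-92b-5p were close to the detection limit. For miR-92a-2-5p, wild type A and B gave 3 and 1 counts, the knockout lines 7 and 9, and there were 15 and 3 in the uninduced and 16 and 12 in the induced line. miR-92b-5p had 7 and 1, 11 and 3, 11 and 2, and 16 and 17 counts in the same order. Both passed the filter, and on these few counts both were called as higher in the knockout against wild type. The change was 3.65 ± 0.82 for miR-92a-2-5p (edgeR adjusted p = 0.0042) and 2.40 ± 0.83 for miR-92b-5p (0.0319). Against wild type, miR-92a-2-5p was also called as higher in the uninduced (2.90, edgeR adjusted p = 0.0112) and induced line (2.54, 0.0257). miR-92b-5p was not called in either (1.48, 0.151, and 1.82, 0.0694). miR-367-3p, made from a cluster with the miR-302 miRNAs, the other miRNA with the seed, gave 1 and 4 counts in wild type A and B. The knockout gave 9 and 1, the uninduced line 18 and 5 and the induced line 11 and 5, so it added at most 18 counts to the seed in a library. Against wild type miR-367-3p was called as higher in the knockout (2.59, edgeR adjusted p = 0.0290) and the uninduced line (2.99, 0.00634). It was not called in the induced line (1.47, 0.163).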

How the data were processed

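The authors deposited whole-number counts per mature miRNA for 8 libraries, without normalization. Per the labels' protocols, Illumina's TruSeq kit for small RNA was used on 1 µg of total RNA. The submitters' processing notes name Bowtie and mm10. How adapters, mismatches and reads that fit several hairpins were handled was not given in the sources used here. Members, lists, tests and alternatives were chosen with earlier results of these data known.

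Analysis used R 4.3.3, edgeR 4.0.16 and DESeq2 1.42.0. The table has 2 header lines, and the first, which matches the sample titles, was used. The second gives the name of wild type B over the column of wild type A, so the identity of wild type A rests on the first line. Of 1915 miRNAs 901 had no count, and the 475 that passed filterByExpr held 99.9% of counts. The abundance fit left 4 residual degrees of freedom and had a common biological coefficient of variation of 0.244. Alternatives were DESeq2 size factors, no TMM factors, the DESeq2 Wald test, other filters, only the 2 groups compared, libraries left out, and a replicate block on the letter of each library. For the arm ratio they were a minimum of 10 counts per arm, DESeq2 and libraries left out. Named miRNAs are all 9 members, the remaining partner arms, miR-367-3p, and the 2 nearest profiles of each member with a mean of at least 20 CPM. Up to 2 per cluster list were set to be named by smallest adjusted p. Further neighbours of these lists were named after their values were seen.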

Additional observations from a re-analysis of the deposited data

How the results depend on the processing

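No call reversed its direction under any alternative. Of the single values tried again, 469 for abundance and 107 for arm ratios kept their side of the threshold, 43 and 1 passed it and 8 and 12 missed it. Without TMM factors the median over all miRNAs moved from -0.12 to 0.16 for knockout against wild type, from 0.03 to -0.17 for doxycycline, from -0.01 to -0.19 for uninduced against knockout and from -0.14 to -0.01 for uninduced against wild type. The split of all calls into higher and lower then went from 121 and 153 to 155 and 111 for knockout against wild type and from 100 and 37 to 83 and 64 for doxycycline. Calls over all miRNAs also moved by more than 1.5 times for doxycycline (137, against 57 to 78 with 1 library left out) and for induced against wild type (185, against 75 to 105 with 1 library left out). For uninduced against knockout, with 0, they were 2 without TMM factors, 8 by DESeq2, 14 without the filter, 25 without the 2 shallowest libraries, 61 without knockout 1 and 33 without knockout 2. Arm ratio calls over all hairpins were 12 for doxycycline, against 4 by DESeq2 and 6 without induced B, 68 for induced against wild type, against 41 without wild type B, and 2 for uninduced against knockout, against 0 to 1 under 5 of 6 alternatives. For doxycycline, where 3 members were called, DESeq2 size factors and the DESeq2 Wald test each called 5, and the fits without TMM factors and with only these 2 groups each called 6. For uninduced against knockout, where 0 were called, the fit without TMM factors called 1, the DESeq2 Wald test and no abundance filter 2 each, and the fit without the 2 shallowest libraries 3. With 1 library left out the range there was 0 to 3. For the doxycycline arm ratios, with 2 calls, DESeq2 called 0 and leaving out 1 library gave 0 to 1. In all these cases the cause was not tested. Divided by the counts outside the 10 most abundant miRNAs, the seed family's counts came to 9.04% in wild type, 14.5% in the knockout, 17.8% uninduced and 11.5% induced. The numerator holds miR-92b-3p and that smaller total does not, so these are ratios and not shares.

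With a replicate block on the library letter, in a fit of the 6 libraries that carry them, 5 members were called for doxycycline, 6 for uninduced and 7 for induced against wild type. It added miR-92a-3p (-0.43, edgeR adjusted p = 0.0313) and miR-92b-3p (-0.38, 0.0408) for doxycycline, and miR-25-3p (-0.40, 0.0114) and miR-363-5p (-0.91, 0.0105) for induced against wild type. No label says that a letter marks a shared batch or day. Deviations of libraries with the same letter correlated at 0.05 for wild type with uninduced, -0.01 for wild type with induced and 0.20 for uninduced with induced. The knockout lines carry no letter, so no such fit was made for them. The values for miR-32 rest on 6 to 131 counts per arm and library.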
